A study of Mus musculus with 16 samples.

Results

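Gene expression was compared between 2 subsets of freshly sorted regulatory T cells (Treg) that both lacked surface CD103 and differed in surface ICOS: the ICOS single-positive cells (CD103neg ICOSpos) and the double-negative cells (CD103neg ICOSneg). The comparison rests on the 4 fresh arrays of these 2 labelled groups, out of 16 arrays in the series. Each group has 2 arrays, labelled biological replicates 1 and 2, and the design text speaks of 2 independent experiments. Whether a replicate number marks an experiment is not stated, so p-values measure the spread between arrays of the same group. That spread was pooled over the 8 groups of the series and not taken from these 4 arrays alone. All cells came from female C57BL/6 mice, 8 to 12 weeks old, and from lymph nodes of several sites that were pooled, so a level is an average over nodes and animals. The mice were wild type, and no group carried a transgene or had been treated before the sort. The other groups used here are the fresh CD103 single-positive and double-positive cells, and the same 2 CD103-negative subsets re-sorted after 3 days in a suppression assay, called activated. In that assay the Treg shared a culture with naive CD4 cells of a congenic strain, irradiated splenocytes lacking Rag2 and soluble anti-CD3, and were then recovered by their CD4 and CD25 and their lack of the congenic marker. RNA was taken directly after the first sort for the fresh arrays.

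Treg are CD4 T cells that restrain immune responses and depend on the transcription factor Foxp3. ICOS is a costimulatory receptor of the CD28 family. In mice, T cells carry more of it after antigen encounter, and its ligand is found on B cells, dendritic cells and other cells. Treg in lymph nodes are usually divided into central cells, which recirculate and carry homing receptors for lymphoid tissue, and effector cells, which express receptors for inflamed tissue and suppressive mediators and divide more often. CD103, the integrin chain encoded by Itgae, binds E-cadherin and is a further marker of effector Treg. Both subsets compared here were sorted as CD103-negative, so the comparison addresses the ICOS difference among cells sorted in that way. It does not fully separate ICOS from CD103, because Itgae was higher on both ICOS single-positive arrays, as given below.

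Values are log2 intensities, and a difference of 1 is a 2-fold change in intensity. The 16 arrays had medians between 6.26 and 6.48. Transcripts of the sorting markers were examined first. Icos read 10.59 and 10.40 in double-negative and 12.61 and 12.65 in ICOS single-positive cells (log2 difference 2.14, limma adjusted p = 0.00874). Itgae read 7.81 and 7.25 in double-negative and 9.19 and 8.72 in ICOS single-positive cells, against 11.77 to 12.37 on the 4 fresh CD103-positive arrays. Thus Itgae was higher in both ICOS single-positive arrays than in both double-negative arrays although both subsets had been sorted as CD103-negative (log2 difference 1.42, limma adjusted p = 0.469; 0.00583 without the activated array described next). The level of Foxp3 was 12.56 and 12.16 in double-negative and 12.34 and 11.99 in ICOS single-positive cells, and the groups overlapped. Il2ra, the IL-2 receptor chain CD25, read 12.58 and 12.53 against 12.24 and 12.18, and Cd4 read 11.99 and 11.19 against 12.11 and 11.95. Neither passed (adjusted p = 0.593 and 0.357). One array outside the comparison stood apart: on replicate 2 of the activated ICOS single-positive cells Foxp3 read 8.53 and Itgae 6.3, against 12.64 and 10 on replicate 1, and 685 genes differed over 2-fold between these replicates. For each gene limma used a single error pooled over the 8 groups, so this array widens errors in the fresh comparison too. Results are also given without it; for fresh cells, leaving out its partner gives the same counts, since a lone array adds nothing to the spread. Between the 2 fresh double-negative arrays 131 genes differed over 2-fold, and between the 2 fresh ICOS single-positive arrays 24 did. The 2 activated double-negative arrays differed over 2-fold in 413 genes, and that pair enters the pooled error as well.

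The genes that separated the subsets most uniformly were those of cell division, and the promoters of 4 of them are shown because mitotic promoters are known to share short elements. The CCAAT box is bound by the factor NF-Y, and the TTTGAA element, called the cell cycle genes homology region, is bound by complexes that hold such genes silent in resting cells and activate them before mitosis. Each window of 300 bases runs from 250 before to 50 after the gene's start, from the RefSeq annotation of GRCm38.p6. It is printed 5′ to 3′ in the direction of the gene, and capitals mark matches to TTTGAA and CCAAT on either strand. Mki67 lies at chr7:135716330-135716629 on the minus strand, Kif11 at chr19:37376132-37376431 on the plus strand, Bub1 at chr2:127831810-127832109 on the minus strand, and Ccnb2 at chr9:70421505-70421804 on the minus strand.
Mki67: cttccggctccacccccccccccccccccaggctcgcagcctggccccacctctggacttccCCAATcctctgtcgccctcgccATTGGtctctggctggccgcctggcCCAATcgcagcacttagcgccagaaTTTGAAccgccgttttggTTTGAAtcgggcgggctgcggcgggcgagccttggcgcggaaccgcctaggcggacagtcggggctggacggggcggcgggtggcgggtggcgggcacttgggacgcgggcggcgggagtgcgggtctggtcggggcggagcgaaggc
Kif11: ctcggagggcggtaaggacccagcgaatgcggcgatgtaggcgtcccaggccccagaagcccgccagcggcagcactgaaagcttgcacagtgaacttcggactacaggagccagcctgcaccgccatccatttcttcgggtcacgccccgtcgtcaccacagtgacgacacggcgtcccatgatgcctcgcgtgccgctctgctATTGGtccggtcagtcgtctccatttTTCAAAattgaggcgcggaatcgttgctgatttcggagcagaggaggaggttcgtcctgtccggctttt
Bub1: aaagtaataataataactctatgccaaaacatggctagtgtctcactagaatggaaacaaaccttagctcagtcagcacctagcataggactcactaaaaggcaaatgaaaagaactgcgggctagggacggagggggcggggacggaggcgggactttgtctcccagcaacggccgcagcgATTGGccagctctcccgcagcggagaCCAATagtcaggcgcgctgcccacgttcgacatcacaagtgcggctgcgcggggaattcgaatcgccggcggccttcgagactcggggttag
Ccnb2: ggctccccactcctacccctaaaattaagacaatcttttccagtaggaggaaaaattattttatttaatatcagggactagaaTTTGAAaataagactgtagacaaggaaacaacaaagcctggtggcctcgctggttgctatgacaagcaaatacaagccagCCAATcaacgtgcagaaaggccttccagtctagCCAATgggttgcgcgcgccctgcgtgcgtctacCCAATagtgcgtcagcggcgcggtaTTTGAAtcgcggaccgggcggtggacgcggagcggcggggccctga

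Mki67 held 2 matches to TTTGAA and 3 to CCAAT, Kif11 1 and 1, Bub1 0 and 2, and Ccnb2 2 and 3. Of the 33 mitosis genes that rose, 28 had a promoter in the table. TTTGAA was found in 20 of these 28 (71.4%), against 20.2% of all 27025 genes with a promoter and 17.3% of the 15614 tested genes with one. CCAAT was found in 22 (78.6%), against 41.1% of all genes, and both motifs in 19 (67.9%), against 7.97%. Of all 34 measured mitosis genes 29 had a promoter, and TTTGAA was found in 21 of these (72.4%). Since 33 of the 34 rose, the shares are those of the list and show nothing about the ICOS difference. The matches of both motifs overlapped at 1 place among the promoters of the list. A match is a description of the letters and does not show that a factor is bound.

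Across 19938 genes, 661 (3.32%) passed a Benjamini-Hochberg adjusted p below 0.05 in limma. Of these, 479 were higher in ICOS single-positive cells (2.4%) and 182 were lower (0.913%). Every list count below is to be set beside these 2 shares. The genes that rose did so by more: 319 of 479 rose over 2-fold and 109 over 4-fold, while 51 of 182 fell over 2-fold and 8 over 4-fold. The median log2 difference was 1.28 among the genes that rose and -0.78 among those that fell. Over all genes tested the median was -0.05, and 38.4% of the differences were positive. In bulk samples a larger share of cells expressing a gene and more RNA per cell cannot be told apart, and this holds for every difference below. The number of calls depended on single arrays: it was 378 without double-negative replicate 1, 273 without double-negative replicate 2, 290 without ICOS single-positive replicate 1 and 230 without ICOS single-positive replicate 2. Without the activated array that stood apart it was 930 (4.66%), with 655 genes higher (3.29%) and 275 lower (1.38%). Of the passing genes 72.5% were higher, against 60.8% after quantile normalization. The arrays of the subsets did not overlap in 47.9% of all genes, higher in 17.5% and lower in 30.4%, nor in any of the 661 that passed, so this holds for every passing gene named below and sets none of them apart.

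**Figure D1:**
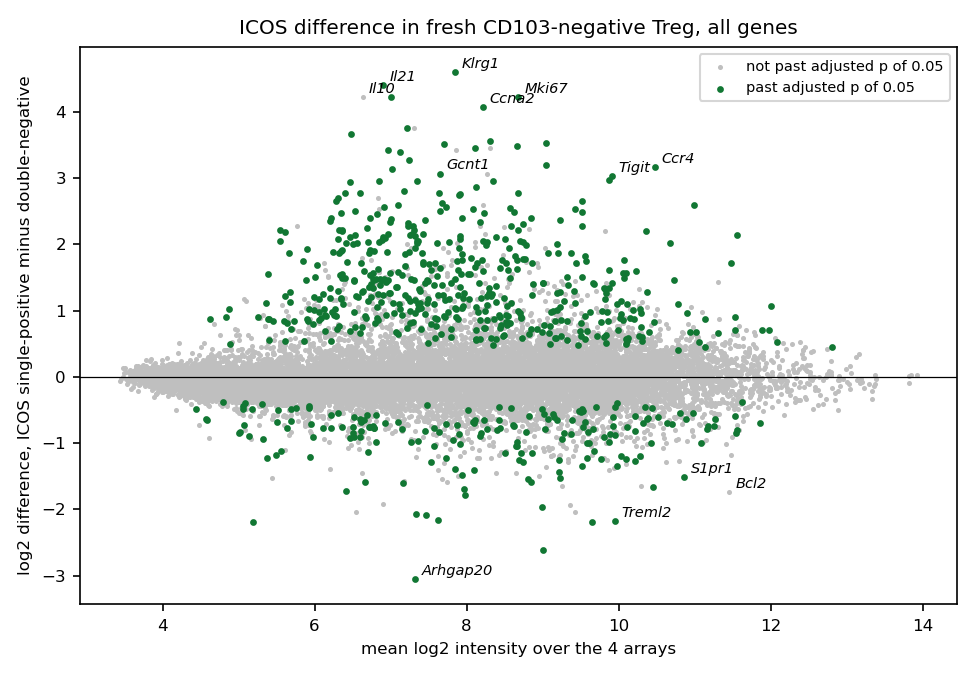
Each point is a gene: the x axis is its mean log2 intensity over the 4 fresh CD103-negative arrays and the y axis its log2 difference, ICOS single-positive minus double-negative. Green points passed an adjusted p of 0.05 (479 above 0 and 182 below), and the points far from 0 lie mostly above it. Il10 and Bcl2 are labelled although they did not pass.

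Cell division gave the clearest group. Of 34 measured mitosis genes 33 rose and 0 fell, with a median log2 difference of 2.24 and a range from 0.76 to 4.23. The count was 31 to 32 when any 1 of the 4 arrays was left out. All 34 were higher on both ICOS single-positive arrays than on both double-negative arrays, a pattern seen in 17.5% of all genes. Mki67, which encodes the proliferation marker Ki-67, read 6.91 and 6.22 in double-negative and 10.73 and 10.85 in ICOS single-positive cells. That is a log2 difference of 4.23 ± 0.21 (SE, n = 2 arrays per group, limma adjusted p = 2.66e-06), or 18.7-fold. Ccna2, the cyclin of S phase and entry into mitosis, read 6.3 and 6.07 against 10.12 and 10.40 (difference 4.08 ± 0.17, adjusted p = 1.3e-06). The gap between the subsets was many times the gap within them for both genes.

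Kif11, a motor that separates spindle poles, read 5.55 and 5.13 in double-negative against 8.99 and 9.21 in ICOS single-positive cells (difference 3.76, adjusted p = 1.92e-05). The spindle checkpoint kinase Bub1 read 5.08 and 4.21 against 8.17 and 8.45 (3.66, adjusted p = 3.69e-05). Ccnb2, a B-type cyclin of mitosis, read 7.46 and 7.10 against 10.84 and 10.77 (3.53, adjusted p = 1.66e-06). These 3 are genes whose promoters are shown above. Bub1 rose with no exact TTTGAA match in its window, and other forms of the element were not searched for. Top2a, the topoisomerase that untangles sister chromatids, read 5.98 and 5.90 against 9.23 and 9.69 (3.52, adjusted p = 2.31e-05). These are values of its brightest probe set. With the mean of its probe sets the difference was 1.83 (limma adjusted p = 0.000304). For Nusap1, a spindle microtubule protein, the values were 5.64 and 5.25 against 8.46 and 8.70 (3.14, adjusted p = 4.73e-06). Ndc80, a kinetochore protein, was the member that did not pass, at 6.56 and 7.26 against 7.48 and 7.86 (adjusted p = 0.33).

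Genes of DNA replication moved with them. Of 32 measured members 28 rose and 0 fell, with a median of 1.37, and the 4 that did not pass were Rfc3, Rfc4, Cdt1 and Fen1, with differences of 0.91 to 1.15. The count of rising members was 20 without double-negative replicate 1, 17 without double-negative replicate 2, 21 without ICOS single-positive replicate 1 and 15 without ICOS single-positive replicate 2. Rrm2, the small subunit of ribonucleotide reductase, read 6.77 and 6.29 in double-negative and 9.95 and 10.24 in ICOS single-positive cells (3.56, adjusted p = 1.92e-05). Ccne2, a cyclin of the entry into S phase, read 5.32 and 5.10 against 7.67 and 8.29 (2.77, adjusted p = 0.000207). Uhrf1, which maintains DNA methylation at replication, read 6.68 and 6.38 against 9.13 and 9.46 (2.76, adjusted p = 2.9e-05). The thymidylate synthase gene Tyms read 6.82 and 6.90 against 8.92 and 9.04 (2.12, adjusted p = 0.000366). Each of these 4 genes passed with any 1 array left out.

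Other cell cycle genes were among the named ones. E2f8, a repressor of the E2F family, read 5.56 and 5.29 in double-negative against 8.81 and 8.82 in ICOS single-positive cells (3.39, adjusted p = 1.67e-05). Cdkn2c, which encodes the CDK4 and CDK6 inhibitor p18, read 6.81 and 6.07 against 8.93 and 9.09 (2.57, adjusted p = 0.00181). It was the 1 member that rose among 16 measured cell cycle inhibitors, D-type cyclins and their partners, where 0 fell and the median was 0.00. Cdkn1b, which encodes the inhibitor p27 found in resting cells, read 11.14 and 11.10 against 10.67 and 10.68 and did not pass (adjusted p = 0.15).

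**Figure D2:**
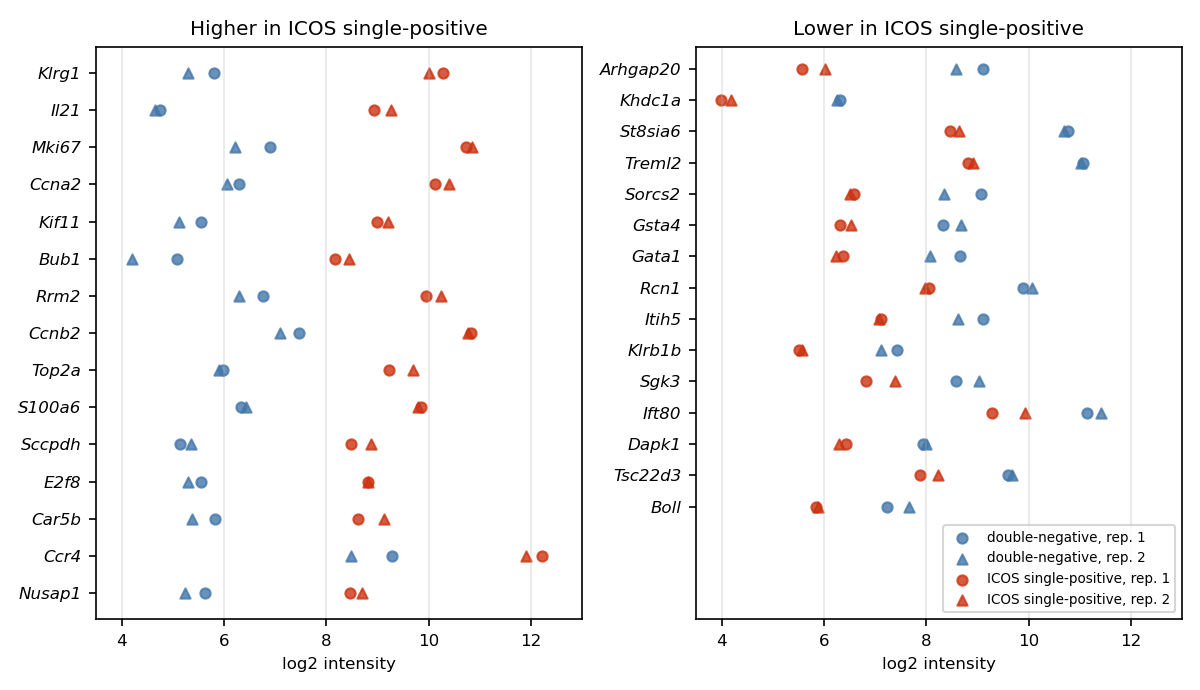
Points are log2 intensities on the 4 arrays for the 15 named genes with the largest positive differences (left) and the 15 with the largest negative differences (right). Circles are replicate 1 and triangles replicate 2, blue is double-negative and red ICOS single-positive. The genes were chosen among those that passed, in which the subsets never overlap.

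The receptors that restrain or guide effector T cells contained the largest single difference. Klrg1, an inhibitory receptor of terminally differentiated effector cells that binds cadherins, read 5.80 and 5.30 in double-negative and 10.29 and 10 in ICOS single-positive cells. The difference was 4.6 ± 1.02 (SE) with a limma adjusted p of 0.0332, and 1.98e-06 without the activated array that stood apart, where Klrg1 read 5.32 against 10 on its partner. Its call was lost without double-negative replicate 1 or 2 (adjusted p = 0.114 and 0.199) and without ICOS single-positive replicate 1 or 2 (0.187 and 0.165). Tigit, a receptor for the nectin-like ligand CD155, read 9.10 and 7.70 against 11.50 and 11.37 (3.04, adjusted p = 0.0128). Lag3, which binds MHC class II, read 7.94 and 7.51 against 9.79 and 9.72 (2.03, adjusted p = 0.00101). Pdcd1, which encodes PD-1, read 9.40 and 8.99 against 10.64 and 10.60 (1.42, adjusted p = 0.0186). These 4 were the members that rose among 16 measured coinhibitory receptors, with 0 falling and a median of 0.50. The count was 3 without double-negative replicate 1, 1 without any other of the 4 arrays and 6 without the activated array that stood apart. Ctla4, which competes with CD28 for its ligands, read 11.53 and 11.50 against 12.02 and 12.00 and did not pass (adjusted p = 0.489).

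Among 13 measured costimulatory receptors and ligands of the CD28 and TNF families, 2 rose and 0 fell, with a median of 0.51. Tnfsf14, which encodes the ligand LIGHT, read 7.70 and 7.49 in double-negative and 8.66 and 8.91 in ICOS single-positive cells (1.19, adjusted p = 0.0439). Cd40lg, the ligand by which helper T cells activate B cells, read 8.03 and 8.22 against 8.90 and 8.99 (0.82, adjusted p = 0.024). Both calls were lost without any 1 of the 4 arrays. Without the activated array that stood apart 5 members rose.

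The 17 measured transcription factors of effector T cells all had positive differences, although most did not pass. Of these members 6 rose and 0 fell, and the median was 1.25. Over all genes 2.4% rose and 38.4% of the differences were positive. For 14 of the 17 both ICOS single-positive arrays lay above both double-negative arrays (17.5% of all genes). Maf, which drives IL-10 and IL-21 expression in T cells, read 10.23 and 9.14 in double-negative and 12.52 and 12.06 in ICOS single-positive cells (2.60, adjusted p = 0.0451). Ahr, a receptor for dietary and microbial ligands, read 8.55 and 7.76 against 10.84 and 10.55 (2.54, adjusted p = 0.00221). Id2, an inhibitor of E proteins, read 10.04 and 9.29 against 11.66 and 11.71 (2.02, adjusted p = 0.00874). Irf4, needed for the effector Treg programme in mice, read 9.36 and 9.02 against 10.86 and 11.04 (1.76, adjusted p = 0.00177). Of these 4, Ahr and Irf4 passed with any 1 array left out, and Maf lost its call without any 1 of the 4 arrays. Batf and Hif1a, a partner of Irf4 and the hypoxia factor, also rose, by 1.27 and 0.90. Prdm1, which encodes Blimp-1, read 6.74 and 6.72 against 9.83 and 9.77. Its difference of 3.07 did not pass in the fit of all arrays (adjusted p = 0.15) and passed without the activated array that stood apart (0.0162). With that array left out 9 members rose. The count was 3 without double-negative replicate 1 and 2 without any other of the 4 arrays. Gata3, the type 2 factor, read 11.25 and 11.01 against 11.42 and 11.14 (adjusted p = 0.885).

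Of 19 measured genes of naive and central T cells 2 fell and 0 rose, 18 differences were negative, and the median was -0.91. S1pr1, the receptor by which T cells leave lymph nodes, read 11.57 and 11.66 in double-negative and 10.11 and 10.11 in ICOS single-positive cells (difference -1.51, adjusted p = 0.000423). Treml2, a surface receptor related to the TREM family, read 11.07 and 11.02 against 8.81 and 8.92 (-2.18, adjusted p = 0.0162). S1pr1 passed with any 1 array left out. Treml2 lost its call without any 1 of the 4 arrays, where its difference was -2.12 to -2.23. Its limma adjusted p was 0.00218 with the 4 arrays alone and 0.000227 with the 8 fresh arrays. Without the activated array that stood apart 7 members fell. Klf2, a quiescence factor that sustains S1pr1 expression, read 10.71 and 10.45 against 9.22 and 9.12 (adjusted p = 0.214). Ccr7, the receptor for lymph node entry, read 12.28 and 11.85 against 11.87 and 11.75 (adjusted p = 0.822).

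Receptors for tissue entry were examined next. Of 18 measured chemokine and related receptors 4 rose and 1, S1pr1, fell, with a median of 1.24. Ccr4, a receptor for skin and inflammatory chemokines, read 9.29 and 8.49 in double-negative and 12.22 and 11.90 in ICOS single-positive cells (3.17, adjusted p = 0.0221). Cxcr3, a receptor for interferon-induced chemokines, read 8.31 and 8.08 against 10.67 and 11.02 (2.65, adjusted p = 0.00887). Ccr8, found on Treg of tissues and tumours, read 8.75 and 8.42 against 10.42 and 10.18 (1.71, adjusted p = 0.0118). Cxcr3 and Ccr8 kept their calls without double-negative replicate 1 and lost them without any other of the 4 arrays. Ccr4 lost its call without any 1 of the 4 arrays, where its difference was 2.77 to 3.56. With the 4 arrays alone its limma adjusted p was 0.00564, and with the 8 fresh arrays 0.000961. Cxcr5, the receptor for B cell follicles, read 8.30 and 7.49 against 9.17 and 9.0 (1.19, adjusted p = 0.0307). Ccr2, the monocyte chemokine receptor also found on effector T cells, read 5.32 and 5.53 against 9.14 and 9.22. Its difference of 3.75 did not pass (adjusted p = 0.0982; 0.011 without the activated array that stood apart). The count of rising members was 3 without double-negative replicate 1, 0 without any other of the 4 arrays and 8 without the activated array that stood apart.

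Of 19 measured integrins and adhesion genes 2 rose and 0 fell, with a median of 0.36. Alcam, a ligand of CD6, read 7.30 and 7.22 in double-negative and 8.81 and 8.83 in ICOS single-positive cells (1.56, adjusted p = 0.00678). Itgb1, the integrin beta 1 chain, read 9.26 and 9.38 against 10.58 and 11.05 (1.5, adjusted p = 0.0156). The count was 2 without double-negative replicate 1, 1 without ICOS single-positive replicate 1 and 0 without the others, and 4 members rose without the activated array that stood apart. Among 14 enzymes of selectin ligands and sialic acid 2 rose and 2 fell. Gcnt1, which builds the branched glycans that carry selectin ligands, read 6.44 and 5.79 against 9.10 and 9.27 (3.07, adjusted p = 0.00268). Chst2, a sulfotransferase of such ligands, read 8.16 and 7.41 against 9.93 and 9.63 (1.99, adjusted p = 0.00301). Both passed with any 1 array left out. St8sia6, which joins sialic acids to each other, read 10.78 and 10.70 against 8.47 and 8.64 (-2.19, adjusted p = 0.00519; 0.0562 without ICOS single-positive replicate 1). St3gal4, a sialyltransferase of selectin ligands, read 8.72 and 8.88 against 7.91 and 8.09 (-0.80, adjusted p = 0.00867). Its call was lost without double-negative replicate 2 and without ICOS single-positive replicate 1 (adjusted p = 0.0937 and 0.092).

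Of 17 measured suppressive mediators and granule genes 4 rose and 0 fell, with a median of 0.84. Fgl2, a secreted suppressive mediator of Treg, read 6.32 and 6.21 in double-negative and 8.39 and 8.90 in ICOS single-positive cells (2.37, adjusted p = 0.022). Lgals1, which encodes galectin-1, read 11.56 and 11.38 against 12.60 and 12.49 (1.08, adjusted p = 0.00191). Lgals3 and the granzyme gene Gzmk rose by 1.85 and 0.84. Il10, the suppressive cytokine, read 4.19 and 4.86 against 9.03 and 8.46, a difference of 4.22 that did not pass in the fit of all arrays (adjusted p = 0.095) and passed without the activated array that stood apart (0.00265). The activated ICOS single-positive arrays read 11.26 and 6.35 for Il10. Gzmb, a cytotoxic granule protease, read 8.97 and 5.21 against 9.03 and 9.21, so the double-negative arrays differed from each other more than the group means did. Without the activated array 7 members rose. The count was 2 without double-negative replicate 2 and 1 without any other of the 4 arrays.

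Cytokine receptors rose in 5 of 20 measured members and fell in 0, with a median of 0.21. Il17rb, a receptor chain for IL-25, read 7.18 and 6.56 in double-negative and 9.90 and 9.75 in ICOS single-positive cells (2.95, adjusted p = 0.00117). Il9r, the IL-9 receptor, read 7.44 and 7.15 against 9.92 and 9.78 (2.56, adjusted p = 0.0105). Il12rb2, the signalling chain of the IL-12 receptor, read 5.72 and 5.91 against 8.12 and 8.27 (2.38, adjusted p = 0.0261). Il12rb2 lost its call without any 1 of the 4 arrays. Il18rap and Il12rb1, chains of the IL-18 and IL-12 receptors, rose by 1.70 and 1.52. Il1r2, the decoy receptor for IL-1, read 6.97 and 6.20 against 10.09 and 9.99 and did not pass (adjusted p = 0.0876; 0.00137 without the activated array that stood apart). That array's removal left 7 rising members. The count was 3 without double-negative replicate 1 and 1 without any other of the 4 arrays, and Il17rb passed with any 1 array left out.

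Helper cytokines included the second largest difference. Il21, a cytokine of follicular helper cells that acts on B cells, read 4.75 and 4.65 in double-negative and 8.94 and 9.27 in ICOS single-positive cells. The difference was 4.40 ± 0.84 (SE), or 21.2-fold (limma adjusted p = 0.0152). With any 1 of the 4 arrays left out it was 4.24 to 4.57, and the call was lost. In a limma fit of the 4 arrays alone the SE was 0.15 and the adjusted p 0.00119. With the 8 fresh arrays they were 0.145 and 5.76e-05. Il2, the growth factor of T cells that Foxp3 represses, read 6.35 and 6.36 against 8.35 and 8.67 (2.16, adjusted p = 0.0482; from 0.17 to 0.276 with any 1 of the 4 left out). They were the 2 members that rose of 13, with 0 falling and a median of 0.24. Ifng, which encodes interferon gamma, read 6.80 and 6.73 against 8.37 and 8.42 (adjusted p = 0.35), and Il17a read 5.89 and 6.08 against 6.41 and 6.04 (adjusted p = 0.944).

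Il21 also belongs to a list of follicular T cell genes, of which 6 of 17 measured members rose and 0 fell, with 17 positive differences and a median of 0.76. Beside Il21, Maf, Pdcd1 and Cxcr5 these were Tox2 and Cebpa. Tox2, a nuclear factor of follicular helper differentiation, read 7.82 and 7.55 in double-negative and 10.03 and 9.43 in ICOS single-positive cells (2.04, adjusted p = 0.00183). Cebpa, a C/EBP transcription factor, read 6.14 and 5.96 against 7.71 and 7.32 (1.47, adjusted p = 0.000806). Both passed with any 1 array left out. Bcl6, the defining factor of follicular T cells, read 8.70 and 8.58 against 9.37 and 9.43 and did not pass (adjusted p = 0.554). The count was 4 without double-negative replicate 1, 2 without any other of the 4 arrays and 8 without the activated array that stood apart.

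Il21, Il2 and Cd40lg are also markers of activated conventional CD4 T cells. Of 10 such markers measured these 3 rose, 0 fell and 8 differences were positive, with a median of 0.44. Their summed linear intensity was 2220 and 1890 in double-negative and 3670 and 3530 in ICOS single-positive cells. Their part in the Il21, Il2 and follicular results was not tested. The log2 difference of Foxp3 beside them was -0.19 (adjusted p = 0.955). Of the other lists, B cell markers had 0 rising and 0 falling of 10 in limma (1 at an unadjusted p below 0.05), with summed intensities of 780 to 893 and 880 to 1080. Myeloid and dendritic cell markers had 0 and 0 of 19 (2 unadjusted), with sums of 3230 on both double-negative arrays and 2940 to 3580 on the ICOS single-positive arrays. For CD8 T and NK cell markers the sums were 795 to 862 and 654 to 714, and 1 of 8 rose, Klrb1c, which read 4.46 and 4.30 against 4.96 and 5.60, all low values. Its call (adjusted p = 0.0234) was lost with the 4 arrays alone (0.109), with the 8 fresh arrays (0.0684), and without double-negative replicate 1 or 2 (0.073 and 0.177) or ICOS single-positive replicate 2 (0.171). Lymph node stroma markers had 1 falling of 8, Pecam1, an adhesion molecule that T cells also express, at 10.42 and 10.32 against 9.29 and 9.47. Of 3 gamma delta T cell markers and of 5 erythroid and platelet markers 0 passed (0 and 1 unadjusted). The T cell markers Cd2, Cd3d, Cd3e and Cd3g read between 10.36 and 12.61 on the 4 arrays, and 0 of 5 T lineage markers passed (1 unadjusted).

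Of 20 measured genes of Treg identity 1, Tigit, rose and 0 fell. The median was 0.04, with differences from -1.65 to 3.03. Ikzf2, which encodes Helios, read 11.18 and 11.14 in double-negative and 11.15 and 11.26 in ICOS single-positive cells (adjusted p = 0.985). Nrp1, a receptor found on thymus-derived Treg, read 10.74 and 10.70 against 10.58 and 10.87 (adjusted p = 0.999). Gpr83, an orphan receptor of resting Treg, read 11.29 and 10.95 against 9.67 and 9.26 (adjusted p = 0.167; 0.00365 without the activated array that stood apart). Without that array 3 members rose and 1 fell.

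Calcium-binding and cytoskeletal genes of effector cells gave another group. Of 19 measured S100, annexin and galectin genes 6 rose and 0 fell, with a median of 0.45. S100a6 read 6.33 and 6.43 in double-negative and 9.86 and 9.80 in ICOS single-positive cells (3.45, adjusted p = 0.036). S100a4 read 6.5 and 6.55 against 9.42 and 9.12 (2.75, adjusted p = 0.0234). Both calls were lost without any 1 of the 4 arrays. Anxa2, a membrane-binding annexin that partners S100a10, read 7.53 and 7.65 against 9.76 and 10.01 (2.30, adjusted p = 0.000269) and passed with any 1 array left out. The others were Lgals3, Anxa4 and Lgals1. The count was 2 without any 1 of the 4 arrays and 8 without the activated array that stood apart.

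Glycolytic genes rose in part. Of 14 measured members 5 rose and 0 fell, with a median of 0.60. Pgam1, phosphoglycerate mutase, read 10.35 and 9.63 in double-negative and 11.55 and 11.36 in ICOS single-positive cells (1.46, adjusted p = 0.00994). Pkm, pyruvate kinase, read 10.77 and 10.62 against 11.57 and 11.58 (0.87, adjusted p = 0.00234). The others were Tpi1, Hk2 and Aldoa, with differences of 1.42, 0.81 and 0.71. The glucose transporter Slc2a1 read 10.85 and 10.31 against 10.58 and 10.43 (adjusted p = 0.944). The count was 3 without double-negative replicate 1 and 1 without any other of the 4 arrays, and Pkm passed with any 1 array left out.

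Among genes of TGF-beta signalling 3 of 17 fell and 0 rose, with a median of -0.13. Smad7, an inhibitor of the receptor, read 10.19 and 10.22 in double-negative and 9.01 and 8.93 in ICOS single-positive cells (-1.23, adjusted p = 0.000806). Smurf1, a ubiquitin ligase that works with Smad7, read 9.52 and 9.51 against 8.85 and 8.89 (-0.65, adjusted p = 0.00795). Smad4, the common partner of receptor-activated Smads, read 10.74 and 10.60 against 10.19 and 10.23 (-0.46, adjusted p = 0.0364). Thus an activator and 2 inhibitors of the pathway fell. With any 1 of the 4 arrays left out Smad7 alone passed. Of 14 interferon-induced genes 1 fell, Oasl2, at 8.59 and 8.10 against 7.32 and 6.93 (-1.22, adjusted p = 0.00665). Its call was lost without double-negative replicate 1 and without ICOS single-positive replicate 2 (adjusted p = 0.0599 and 0.0868).

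Of 15 Bcl2 family and caspase genes 1 rose, Bak1, a pore-forming death effector, at 9.58 and 9.29 in double-negative and 10.45 and 10.11 in ICOS single-positive cells (0.85, adjusted p = 0.0333; lost without any 1 of the 4 arrays). Bcl2, which protects resting lymphocytes, read 12.37 and 12.28 against 10.65 and 10.53, and its difference of -1.74 did not pass (adjusted p = 0.064). Immediate early genes of T cell receptor signalling gave 0 rising and 0 falling of 23 in limma, 1 at an unadjusted p below 0.05, with a median of 0.01. Jun, a subunit of the factor AP-1, read 11.09 and 9.04 in double-negative and 10.07 and 8.44 in ICOS single-positive cells, higher in replicate 1 of both subsets. Sterol synthesis, SOCS, JAK and STAT, and heat shock genes gave 0 calls among 16, 13 and 7 measured members (1, 4 and 2 at an unadjusted p below 0.05).

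**Figure D3:**
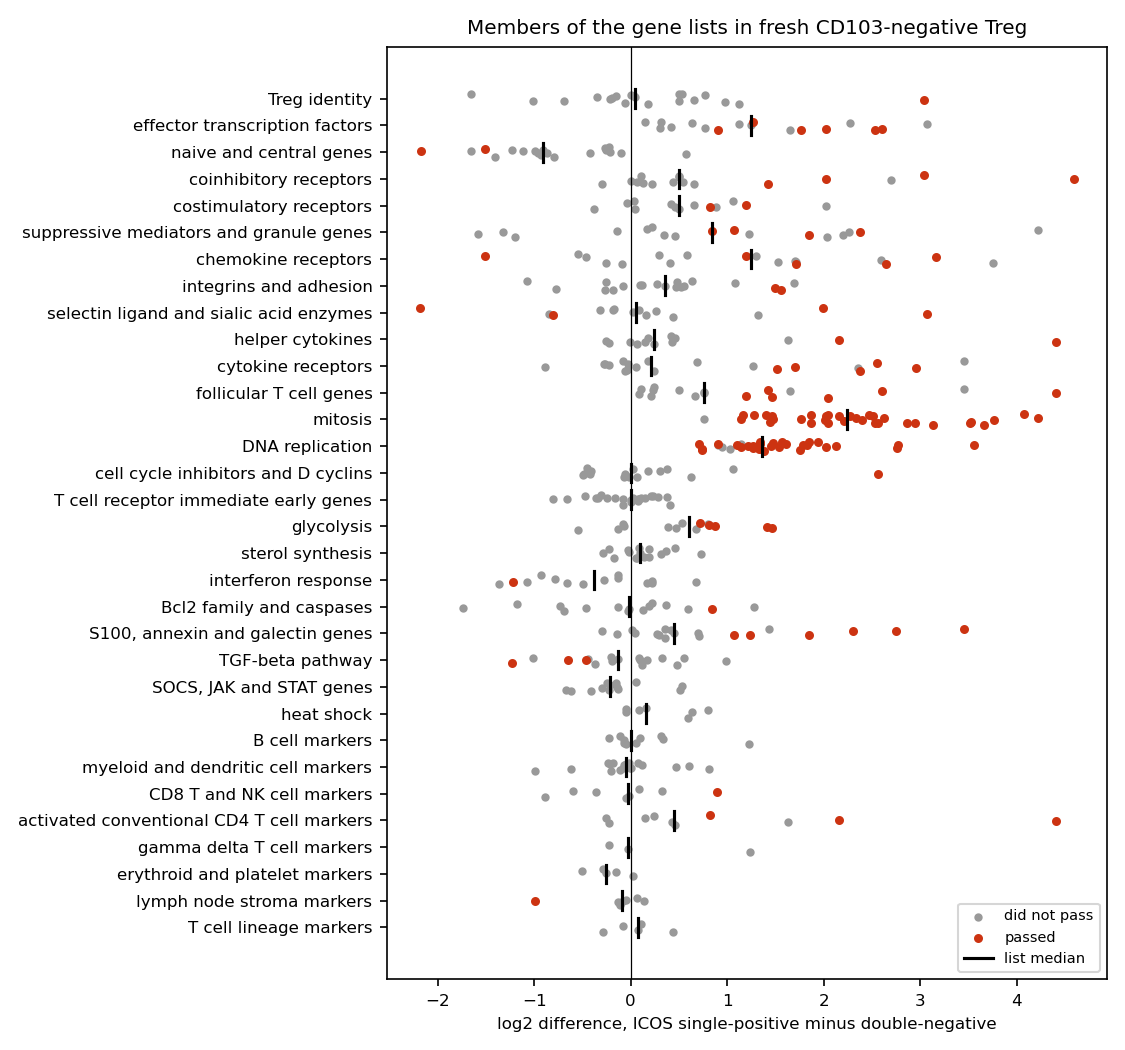
Each row is a gene list and each point a measured member, placed by its log2 difference, ICOS single-positive minus double-negative. Red points passed an adjusted p of 0.05, grey points did not, and bars mark list medians; the mitosis median is 2.24 and the naive and central median -0.91.

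Several of the largest differences lay outside the lists. Car5b, a mitochondrial carbonic anhydrase, read 5.83 and 5.37 in double-negative and 8.62 and 9.13 in ICOS single-positive cells (3.27, adjusted p = 0.000218). Sccpdh read 5.15 and 5.36 against 8.48 and 8.88 (3.42, adjusted p = 0.00659; 0.0508 without double-negative replicate 1 and 0.0766 without ICOS single-positive replicate 2). Car5b passed with any 1 array left out.

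The largest fall was in Arhgap20, which read 9.11 and 8.59 in double-negative and 5.58 and 6.02 in ICOS single-positive cells. Its difference was -3.05 ± 0.38 (SE, adjusted p = 0.00101), or 8.26-fold higher in double-negative cells. Khdc1a read 6.31 and 6.26 against 3.98 and 4.19 (-2.19, adjusted p = 0.000124). Sorcs2, a sorting receptor of the Vps10 family, read 9.07 and 8.34 against 6.58 and 6.51 (-2.16, adjusted p = 0.000344). Gata1, best known as a factor of erythroid cells, read 8.67 and 8.07 against 6.37 and 6.23 (-2.07, adjusted p = 0.00404; 0.0515 without ICOS single-positive replicate 2). The erythroid gene Alas2 read 6.07 and 5.95 against 5.76 and 5.75 beside it.

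Gsta4, a glutathione transferase, read 8.33 and 8.68 in double-negative and 6.31 and 6.54 in ICOS single-positive cells (-2.08, adjusted p = 0.000248). Rcn1, a calcium-binding protein of the endoplasmic reticulum, read 9.90 and 10.06 against 8.05 and 7.98 (-1.97, adjusted p = 0.000248). Tsc22d3, which encodes the glucocorticoid-induced protein GILZ, read 9.60 and 9.68 against 7.88 and 8.23 (-1.58, adjusted p = 0.000318). These 3 passed with any 1 array left out, as did Arhgap20, Khdc1a, Sorcs2, Itih5 and Boll. Itih5 and Boll fell by 1.78 and 1.58. Klrb1b, an inhibitory lectin-like receptor, and Dapk1, a death-associated kinase, fell by 1.72 and 1.60 and passed with none of the 4 left out in turn. Sgk3, a serine kinase, and Ift80, a ciliary transport protein, fell by 1.69 and 1.67. Neither passed without double-negative replicate 2 (adjusted p = 0.135 and 0.163) or ICOS single-positive replicate 1 (0.146 and 0.189), and Ift80 also did not without double-negative replicate 1 (0.0702).

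Whether these ICOS differences depended on CD103 was asked by comparing them with the difference between fresh double-positive and CD103 single-positive cells. The 2 comparisons share no array, but they share the error that limma pooled for each gene, so passing in both is not independent. In CD103-positive cells 435 genes passed (2.18%). Of the 479 genes that rose 449 had the same sign in CD103-positive cells and 179 passed there, where 315 genes passed upward (1.58%). Of the 182 that fell 171 had the same sign and 34 passed there, where 120 passed downward (0.602%). No share of equal signs over all genes stands beside these counts. The mitosis genes had a median of 1.64 in CD103-positive cells, with 27 of 34 rising, and the DNA replication genes a median of 0.56, with 7 of 32 rising. Klrg1 differed by 4.54 in CD103-positive cells, at 7.45 and 7.33 against 11.83 and 12.03. The difference of differences was tested for every gene, and 9 genes passed (0.0451%). Of these, 4 had a larger value in CD103-negative cells (0.0201%) and 5 a smaller one (0.0251%). In the limma fit of the 8 fresh arrays alone 62 of 19938 genes passed. A gene that did not pass is not shown to have equal differences with and without CD103.

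Cybb and Cacna1d were the 2 of those 9 that also passed in CD103-negative cells. Cybb, the catalytic subunit of the phagocyte NADPH oxidase, read 8.48 and 8.11 in double-negative and 9.71 and 9.72 in ICOS single-positive cells. In CD103-positive cells it read 10.84 and 11 without ICOS and 9.20 and 9.36 with it. The ICOS difference was thus 1.42 without CD103 and -1.64 with it, and the 2 values differed by 3.06 (SE 0.34, adjusted p = 0.0165). Cacna1d, a calcium channel subunit, read 5.79 and 5.51 against 7.23 and 7.06 in CD103-negative cells, and 6.09 and 6.01 against 6.14 and 5.86 in CD103-positive cells. Its differences of 1.49 and -0.05 were 1.54 apart (SE 0.20, adjusted p = 0.0328). No gene passed the difference of differences when double-negative replicate 2 was left out (749 genes had an unadjusted p below 0.05), nor without replicate 2 of the CD103 single-positive cells (1121 unadjusted), nor without ICOS single-positive replicate 1 (876) or 2 (764). The count was 2 without double-positive replicate 1, 16 without either activated double-negative array and 30 (0.15%) without the activated array that stood apart.

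Il21 read 4.72 and 4.72 in CD103 single-positive and 4.86 and 5.13 in double-positive cells, so its difference was 0.28 in CD103-positive against 4.40 in CD103-negative cells. The difference of 4.13 between them did not pass in the fit of all arrays (adjusted p = 0.46), in which the activated arrays spread from 6.21 to 9.60. In the fit of the 8 fresh arrays alone it passed (adjusted p = 0.00328), as it did for Il12rb2 and Il2 (0.0141 and 0.019), whose differences in CD103-positive cells were 0.04 and 0.37. Cxcr5 read 9.01 and 8.88 in CD103 single-positive and 7.80 and 7.55 in double-positive cells. Its difference was -1.27 there against 1.19 in CD103-negative cells, and the values did not differ past the threshold in either fit (adjusted p = 0.0553 and 0.0567). The follicular list had a median of 0.20 in CD103-positive cells, with 0 rising and 2 falling of 17.

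**Figure D4:**
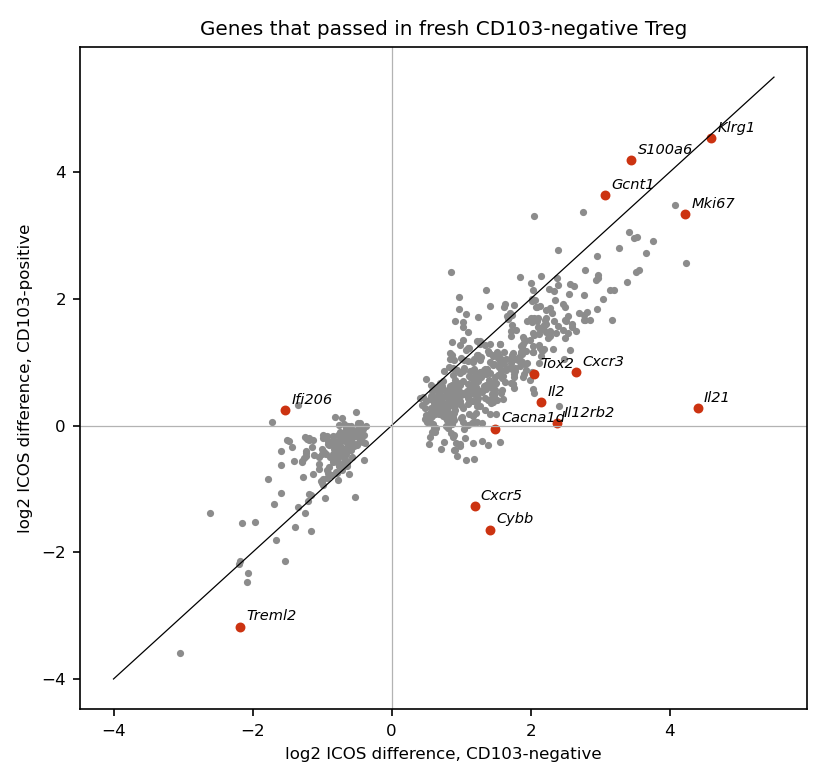
Each point is 1 of the 661 genes that passed in CD103-negative cells, with its log2 ICOS difference there on the x axis and in CD103-positive cells on the y axis; the diagonal marks equal values. Most points keep their sign, Mki67 and Klrg1 lie high on both axes, and Il21, Il12rb2, Cxcr5 and Cybb (red, among the labelled genes) lie far below the diagonal.

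After the suppression assay the same 2 subsets differed in 410 genes (2.06%), 175 higher (0.878%) and 235 lower (1.18%). Without the array that stood apart the count was 243 (1.22%), with 176 higher (0.883%) and 67 lower (0.336%), and it was 136 without activated double-negative replicate 1 and 231 without either fresh ICOS single-positive array. A fit of the 4 activated arrays alone passed 0 genes in limma, with 2351 at an unadjusted p below 0.05. Of the 479 genes that rose in fresh cells 145 had the same sign after activation, and of the 182 that fell 69 did. No share of equal signs over all genes stands beside these counts either, so nothing is read from them. The fresh and activated ICOS differences were compared directly for every gene, and 1046 passed (5.25%), or 656 (3.29%) without the array that stood apart. The count was also 659 and 580 without double-negative replicate 1 and 2, and 593 and 470 without ICOS single-positive replicate 1 and 2 of the fresh cells. Among the genes that rose in fresh cells 334 (69.7%) passed that comparison, and 276 did without the array that stood apart. The comparison of states contains the 4 fresh arrays on which these genes were chosen, which raises this share above that of all genes, so nothing is read from it. Among those that fell the counts were 105 (57.7%) and 66.

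The mitosis genes were among those that changed between states, in a comparison that 5.25% of all genes passed. That comparison contains the 4 fresh arrays in which these genes differed, so its counts are not separate from the fresh result. Mki67 read 11.74 and 11.60 in activated double-negative and 11.55 and 11.37 in activated ICOS single-positive cells, so both subsets lay above the fresh ICOS single-positive level. The ICOS difference was -0.21 after activation against 4.23 in fresh cells (adjusted p of the change 4.1e-05, and 0.000334 without the array that stood apart). The median over the mitosis list was -0.33 in activated cells, and 33 of 34 members passed the comparison of states, also without that array. For DNA replication the median was -0.75, and 31 of 32 members passed (26 without that array). Klrg1 read 5.67 and 5.35 in activated double-negative cells and 10 and 5.32 in activated ICOS single-positive cells, so its activated difference of 2.15 rests on replicate 1.

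The largest changes of direction among genes that fell in fresh cells were those of Ifi213 and Ifi206, members of the interferon-induced Ifi200 family. Ifi213 read 10.17 and 10.20 in double-negative and 8.76 and 8.92 in ICOS single-positive fresh cells (-1.34, adjusted p = 0.00117), and its difference was 3.16 after activation (adjusted p of the change 1.25e-05). Ifi206 fell by 1.53 in fresh cells (adjusted p = 0.0487), a call lost without any 1 of the 4 arrays. Cd55, a complement regulator, read 8.54 and 9.07 against 7.23 and 7.56 (-1.41, adjusted p = 0.0117) and differed by 1.65 after activation. S1pr1 differed by 1.19 after activation against -1.51 in fresh cells.

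**Figure D5:**
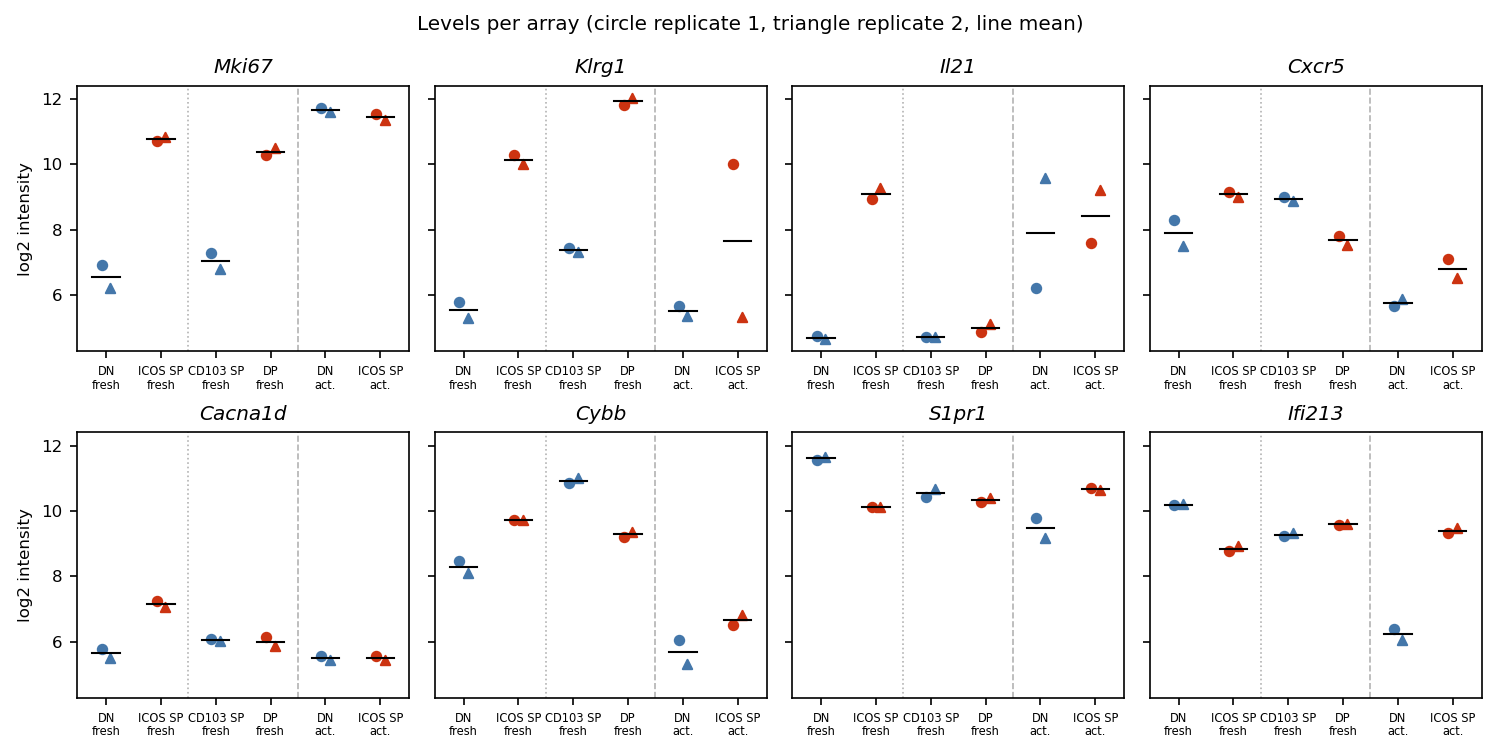
Log2 intensity of 8 genes on the arrays of 6 groups: fresh double-negative (DN), ICOS single-positive (ICOS SP), CD103 single-positive (CD103 SP) and double-positive (DP) cells, and activated (act.) DN and ICOS SP cells. Blue groups were sorted as ICOS-negative and red as ICOS-positive; Mki67 is low in both fresh blue groups and high in all other groups shown, and Il21 is high in only 1 fresh group.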

How the data were processed

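RNA of sorted Treg was hybridised to Affymetrix arrays after amplification and biotin labelling. The authors deposited log2 intensities for 35556 probe sets on 16 arrays, made with RMA and the affy package per the submitters' processing notes; their versions were not stated there. Of these probe sets 21789 had 1 gene symbol, 1621 several and 12146 none. Those with 1 symbol were kept, and the brightest probe set per gene gave 19938 genes. Means of 8 groups of 2 arrays were fitted with limma 3.58.1 (R 4.3.3; lmFit and eBayes, 8 residual degrees of freedom), and p-values were Benjamini-Hochberg adjusted over all genes. As a check of the code the fit was also run on simulated data, and no result here rests on that run. Array number limits the precision, and a permutation test of 2 against 2 arrays cannot go below p = 0.333. Of 494 listed genes 454 were measured. Genes were named by rule: the 15 largest passing differences per direction (predicted, small RNA, histone and antigen receptor genes left out), up to 4 passing members per list, and up to 5 genes per direction for differences between differences; further list members are given by their values. The members and lists were chosen with earlier results of these data known. Alternatives were other array subsets, a trended prior, an intensity minimum of 6, probe set means, quantile normalization, a replicate block and leaving out each array. Figures were drawn with matplotlib 3.10.9.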

Additional observations from a re-analysis of the deposited data

Results flagged for a closer look

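The ICOS difference in fresh CD103-negative cells and the same difference after activation were compared by an interaction term in limma, and the genes below passed it; each value is the fresh minus the activated log2 difference. Among cell division genes it was 4.44 for Mki67, 4.34 for Ccna2, 4.29 for Bub1, 4.14 for Rrm2, 4.05 for E2f8, 4.03 for Kif11, 3.79 for Top2a, 3.78 for Ccne2, 3.72 for Uhrf1, 3.66 for Ccnb2, 3.15 for Nusap1, 2.99 for Tyms and 2.28 for Cdkn2c. Among receptors, regulators and adhesion genes it was 3.00 for Ccr8, 2.77 for Il17rb, 2.50 for Gcnt1, 1.93 for Id2, 1.91 for Irf4, 1.68 for Itgb1, 1.46 for Cacna1d, 1.40 for Cebpa and 0.96 for Lgals1. For metabolic and other genes it was 3.91 for Sccpdh, 2.53 for Car5b, 2.50 for Anxa2, 2.22 for Hk2, 2.06 for Pgam1, 1.95 for Tpi1 and 1.24 for Pkm.

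Negative values belonged to genes that fell in fresh cells. Every gene listed here, with either sign, was named for passing in fresh cells. The interaction term contains those same 4 fresh arrays, so its signs largely follow from that choice and nothing is read from them. The negative values were -4.51 for Ifi213, -4.33 for Ifi206, -3.21 for St8sia6, -3.06 for Cd55, -2.70 for S1pr1, -2.24 for Gsta4, -2.24 for Tsc22d3, -2.15 for Arhgap20 and -2.12 for Sorcs2. Smaller ones were -1.96 for Khdc1a, -1.94 for Rcn1, -1.83 for Oasl2, -1.82 for Itih5, -1.69 for Pecam1, -1.66 for Smad7, -1.46 for Boll, -1.0 for Smurf1 and -0.69 for Smad4. Without replicate 2 of the activated ICOS single-positive cells the limma adjusted p of this comparison was 0.115 for Arhgap20, 0.071 for Cdkn2c, 0.112 for Gcnt1, 0.146 for Id2, 0.119 for Itgb1, 0.0776 for Lgals1, 0.0577 for Smad4 and 0.0601 for Tpi1, all above 0.05. The values without it were -2.04, 1.88, 2.40, 1.71, 1.36, 0.81, -0.71 and 1.58 in the same order of genes, with a single array left in that group.

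The difference between CD103-negative and CD103-positive fresh cells was also tested by an interaction term, which passed at 3.06 for Cybb and 1.54 for Cacna1d.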

How the results depend on the processing

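No sign of the 661 passing genes turned, but their groups do not overlap and most settings leave the difference as it is, so this outcome was fixed and supports nothing. The count was 1093 (732 higher, 361 lower) with the 8 fresh arrays only, and quantile normalization gave 341 lower genes. Leaving out 1 array gave 230 to 930 genes, 188 to 655 higher and 42 to 275 lower. For the comparison of the ICOS difference by CD103, 9 genes became 62 with the 8 fresh arrays, 28 with a trended robust prior, 17 with probe set means and 17 with quantile normalization, and 0 to 30 with 1 array left out. For activated cells 410 became 0 with those 4 arrays alone and 136 to 556 with 1 array left out; for the comparison of states 1046 became 470 to 1432. The replicate numbers were also used as a block: 1401 genes passed (877 higher, 524 lower; 62.6% higher), 71 by CD103, 1261 in activated cells and 2133 by state, and with the 8 fresh arrays only 3869 (2051 higher, 1818 lower; 53.0% higher) and 1124 by CD103. All 80 named calls held under the block and with probe set means, although the Top2a difference was 1.83 with probe set means against 3.52. With a trended robust prior 5 were lost (Klrg1, S100a6, Smad4, Il2 and Maf), with the 4 arrays alone 3, with the 8 fresh arrays 3 (Bak1, Klrb1c and Smad4 in both), with quantile normalization 3 (Bak1, Il2 and Tnfsf14) and with the intensity minimum 1 of 74 (Smad4). Leaving out 1 array outside the comparison lost 0 to 7, and 1 array of it 28 to 39. Deviations of same-numbered fresh arrays correlated at 0.499 to 0.752, but the labels do not tie a number to an experiment, so this is a hint from the data. Where a count moved, the cause was not tested beyond the number of arrays and the spread they share. With 2 arrays per group, 22 of 81 named genes passed in none of the 4 fits that left out 1 array of the comparison, and 37 passed in all of them.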

Other observations

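Replication-dependent histone genes, which supply histones during DNA synthesis, were grouped after their values were seen. Of 27 measured genes 11 rose in ICOS single-positive cells (2.4% of all genes rose), 0 fell and 20 differences were positive, with a median of 0.44 (0.32 in CD103-positive and -0.15 in activated cells). The count was 9 and 5 without double-negative replicate 1 and 2, and 5 and 7 without ICOS single-positive replicate 1 and 2. H2ac4 read 5.09 and 4.69 in double-negative and 9.49 and 8.74 in ICOS single-positive cells (log2 difference 4.23, limma adjusted p = 0.000723). H1f5 read 6.95 and 6.90 against 10.29 and 10.53 (3.48). Members of this family have similar sequences, so single members are uncertain.

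The Ifi200 family of interferon-induced genes was also chosen after its values were seen. Of 10 measured genes 2 fell (Ifi206 and Ifi213; 0.913% of all genes fell) and 0 rose, with a median of -0.47 in CD103-negative, 0.14 in CD103-positive and 2.12 in activated cells. The change between states passed for 5 members (5.25% of all genes) and for 5 without the activated array that stood apart (3.29%), of which 4 were shared. Ifi209 passed in the fit of all arrays alone (adjusted p = 0.0207 against 0.0709) and Ifi205 without that array alone (0.0907 against 0.00693). These genes are related in sequence as well.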
